A study of Mus musculus with 14 samples.

Results

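The phase II conjugation enzymes studied here are the glutathione transferases (symbols beginning Gsta, Gstm, Gstp, Gstt, Gstk, Gsto, Gstz and Mgst), the UDP-glucuronosyltransferases (Ugt1, Ugt2, Ugt3) and the sulfotransferases (Sult). The families were chosen with earlier results of these data known. Their genes were taken by symbol alone: 67 of the 21896 protein-coding genes of the mouse RefSeq table. A peak of histone H3 lysine 9 acetylation (H3K9ac) was assigned to them when it overlapped the span of such a gene or the 1 kb on either side of its 2 ends. This gave 969 of 357969 peaks, which merged into 115 of 57979 regions and touched 50 of the 67 genes. Of the 115, 34 had a peak in each of the 12 libraries, and only in these could tags be compared, because a library without a peak reports no count. All libraries came from liver of male C57BL6/J mice aged 2 to 3 months, 12 h after partial hepatectomy, and were made by chromatin immunoprecipitation with an antibody to acetylated H3K9. The study's stated aim concerns delaying the low blood glucose that follows this operation. Its 2 groups, 6 libraries titled d22 and 6 titled pbs, have treatment labels that go against their titles: d22 libraries are labelled vehicle and pbs libraries 22.5% dextrose. The titles are used here as names, and no treatment is assigned to either group. The labels do not say whether libraries came from separate mice, so every p-value measures only the spread between these samples. Each title group also had its own pooled input as the background for peak calling, so title and input cannot be told apart.

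As background, phase II enzymes attach a polar group to drugs, toxins, hormones, bile pigments and bile acids so that these can be excreted. Glutathione transferases add glutathione to electrophiles, glucuronosyltransferases add glucuronic acid, and sulfotransferases add sulfate. Hepatocytes hold most of this activity in the body, and many of the genes lie in tandem clusters of near-identical copies. The Ugt1 cluster is built differently: each Ugt1a gene has its own promoter and first exon and splices into a common set of last exons, so its genes overlap. H3K9ac is a mark of active promoters and enhancers and is usually strongest just downstream of a start site.

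The promoter sequences that bear on the changed regions were taken from RefSeq (GRCm38.p6, the coordinates of mm10), as the 250 bases before a start, 5′ to 3′ on the gene's strand. Capitals mark matches to 7 short motifs searched on both strands: TGACNNNGC (the antioxidant response element core), CACGTG (the E-box), CAAAGTCCA (an HNF4-type element), GTTAAT (an HNF1 half-site), AGGTCA (a nuclear receptor half-site), GGGCGG (the GC box) and TATAAA (the TATA box). The pair from the sulfotransferases is shown because the region at an internal start of Sult2a8 was called lower in d22, with Sult1a1 as another member of the family. The pair from the Gstt cluster on chromosome 10 is shown because a called region assigned to Gstt3 lay over the neighbouring gene Ddt. The start of Ugt1a1 is shown because it had the densest tags of the 34 regions.
Sult2a8, internal start, chr7:14438552-14438801, minus strand: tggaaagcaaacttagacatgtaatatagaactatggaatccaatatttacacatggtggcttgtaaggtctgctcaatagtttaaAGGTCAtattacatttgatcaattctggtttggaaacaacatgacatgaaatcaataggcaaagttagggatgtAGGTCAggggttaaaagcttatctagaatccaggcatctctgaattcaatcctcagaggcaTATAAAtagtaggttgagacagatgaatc
Sult1a1, chr7:126676419-126676668, minus strand: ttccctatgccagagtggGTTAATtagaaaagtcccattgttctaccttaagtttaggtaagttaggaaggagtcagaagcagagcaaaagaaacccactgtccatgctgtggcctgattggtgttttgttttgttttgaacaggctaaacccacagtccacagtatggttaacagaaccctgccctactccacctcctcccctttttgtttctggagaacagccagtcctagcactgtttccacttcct
Ddt, chr10:75773375-75773624, minus strand: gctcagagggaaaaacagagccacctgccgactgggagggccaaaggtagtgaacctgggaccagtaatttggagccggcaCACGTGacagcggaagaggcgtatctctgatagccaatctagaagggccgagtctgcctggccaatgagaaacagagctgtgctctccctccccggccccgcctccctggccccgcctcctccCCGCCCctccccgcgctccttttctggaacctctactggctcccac
Gstt3, chr10:75781423-75781672, minus strand: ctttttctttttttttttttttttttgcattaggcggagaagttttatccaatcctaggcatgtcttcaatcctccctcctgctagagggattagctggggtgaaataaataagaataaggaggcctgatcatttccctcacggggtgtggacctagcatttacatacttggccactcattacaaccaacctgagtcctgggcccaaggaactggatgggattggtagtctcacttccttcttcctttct
Ugt1a1, chr1:88211709-88211958, plus strand: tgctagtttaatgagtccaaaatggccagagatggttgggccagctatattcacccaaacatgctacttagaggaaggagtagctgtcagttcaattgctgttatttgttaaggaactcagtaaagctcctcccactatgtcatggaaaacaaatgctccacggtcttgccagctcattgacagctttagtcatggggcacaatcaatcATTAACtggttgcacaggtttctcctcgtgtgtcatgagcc

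The Sult2a8 sequence held AGGTCA 2 times and a TATAAA whose first base was 29 bases before the start. The Sult1a1 sequence held 1 GTTAAT, and the Ugt1a1 sequence held 1 on the reverse strand, 41 bases before its start. The Ddt sequence, the richest in G and C of the 5 at 62.8%, held the palindrome CACGTG and 1 GGGCGG on the reverse strand, while the Gstt3 sequence held no match. Over the 71 promoters of 59 member genes in the table, GTTAAT occurred in 14 (19.7%, against 6.43% of all 32851 promoters of that length) and TATAAA in 14 (19.7%, against 12.4%). AGGTCA occurred in 11 (15.5%, against 14.0%), GGGCGG in 17 (23.9%, against 32.7%) and TGACNNNGC in 4 (5.63%, against 10.2%), those of Gsta3, Gstm5, Gstm7 and Mgst1. CACGTG and CAAAGTCCA were in none of the 71, against 6.02% and 0.384% of all. The median GC content was 45.6%, against 52.4% over all promoters. These are matches of letters in a window and were not tested for use. Gstt2, whose region changed most firmly, was not among the promoters matched.

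Depth after the authors' filtering, as the file headers give it, was lowest in d22 4 (6343891 tags) and highest in pbs 1 (13259411 tags). The library d22 4, the shallowest, stood apart: it had 44585 peaks where the other 11 had 26352 to 30780, and it alone held 15916 of the 27269 regions found in a single library. Next in depth, pbs 3 (6385610 tags) had 29087 peaks and alone held 947 of those regions. Member peaks numbered 65 (d22 1) to 93 (pbs 2) per library. They took 0.173% of all peak tags in d22 4, 0.243% to 0.279% in the other d22 libraries and 0.251% to 0.339% in the pbs libraries. On the log2 scale the median member region in d22 4 was 0.44 below its mean over libraries, while in pbs 2 it was 0.28 above. Without d22 4, 22 of the 34 member regions tested had negative values in place of 23, and the same 3 regions were called.

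The mark was spread unevenly over the families. Every family had at least 1 region found in all 12 libraries, but the share of such regions ran from 2 of 3 for Gstp to 1 of 14 for Gsta among the families with several. All 7 Gstm genes and all 3 Gstp genes had a peak in at least 1 library, against 8 of 21 sulfotransferase genes. The spans of the 9 Ugt1a genes overlap, so that a region at Ugt1a1 counts for each of them, and no region covered the starts of Ugt1a10, Ugt1a9, Ugt1a8 or Ugt1a2. The 17 genes with no peak in any library were Gstt4, Ugt2a1, Ugt2a2, Ugt2b37, Sult1c1, 7 Sult2a genes (Sult2a1 to Sult2a7), Sult3a1, Sult3a2, Sult4a1, Sult6b1 and Sult6b2. Ugt2a1 and Ugt2a2 are best known from the olfactory epithelium, Sult4a1 from brain, and Sult2a1 and Sult3a1 as female-predominant genes of mouse liver. The absence of a peak means only that the authors' caller, at a p-value cutoff of 1e-05, reported none. How reads that match several near-identical copies were placed is not given in the sources used here, and this bears on the Sult2a, Gstm, Gstp, Ugt2b and Ugt1a6 copies.

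**Figure D1:**
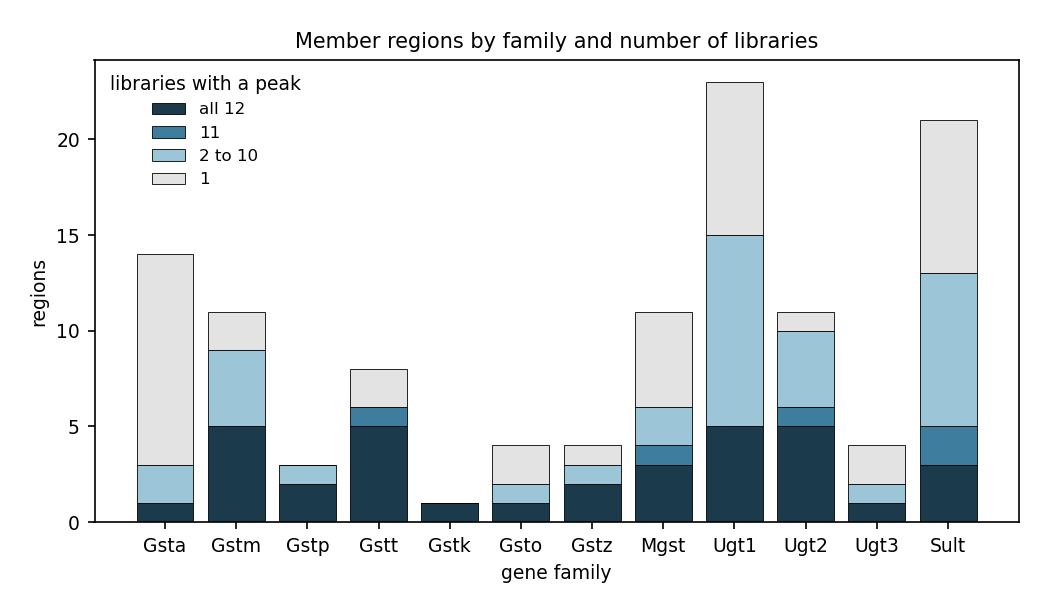
Number of regions in each gene family (y axis), split by how many of the 12 libraries had a peak there. Gsta had 14 regions but 1 in all 12 libraries, while Gstm had 5 of 11 and Ugt2 5 of 11.

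Of the 115 regions, 34 (29.6%) were found in all 12 libraries, 5 in 11, 34 in 2 to 10, and 42 in 1. Over all 57979 regions, 21.3% were found in all 12. The 5 regions found in 11 libraries lay in Mgst3, Gstt1, Ugt2b1, Sult1b1 and Sult2a8, and in each case the library without a peak was a d22 library (d22 6 for 3 of them, d22 5 and d22 4 for 1 each). Of all 1464 such regions, 991 (67.7%) were missing from a d22 library, 636 of them from d22 4. Of the 42 member regions in a single library, 18 were in d22 4. Among the 34 regions found in 2 to 10 libraries, 16 were in more pbs than d22 libraries, 6 in more d22 libraries and 12 in equal numbers, while over all 16871 such regions 38.7% were in more pbs and 33.0% in more d22 libraries. None of the 34 passed Fisher's exact test after Benjamini-Hochberg adjustment, nor did any of the 16871 (0%), and at an unadjusted p under 0.05 there were 0 members and 99 regions in all. A region at chr19:47865055-47865899 covers the start of Gsto2 and lies just past the end of Gsto1, an omega-class transferase active in reducing arsenicals. It had the smallest member p, 0.242 (Fisher's exact test, two-sided), and was found in 1 d22 and 4 pbs libraries. The next smallest p in that direction, 0.455 (exact), was shared by 6 regions, among them those inside the Ugt1a cluster (chr1:88120194-88121613) and at Mgst1 (chr6:138148083-138150210), each in 4 d22 and 6 pbs libraries. Among those more often found in d22, the start of Sult1c2 had 2 d22 and 0 pbs libraries, and the regions before Ugt1a9 and inside Gstm2 had 3 d22 and 1 pbs library each.

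Of the 59 member genes with a matched start, 24 had it inside a region found in all 12 libraries, 11 inside a region found in fewer, and 24 in none. At 20 of the 24, the median summit over the 12 libraries lay downstream of the start, and the median over all 24 was 351 bp. The extremes were Ugt1a1, whose summit lay 2088 bp downstream, and Gstp3, whose median summit lay upstream, at -8371 bp from the start, within a domain of 18299 bp that runs well past the gene. Per kb of called peak the densest region was that at Ugt1a1 with 65.3 CPM per kb over all libraries, at the 99.6th percentile of the 12375 regions tested. CPM, the usual depth-scaled tag count, was taken over the tags in those regions with edgeR's TMM scaling. The Ddt region beside Gstt3 had 54.4 (97.4th percentile) and Mgst1 52.0 (96.1th percentile). The least dense were the region at the upper end of Sult1a1, which also overlaps Slx1b, with 16.8, that inside Gstt1 with 17.5, and that at the internal start of Sult2a8 with 17.6 (3.20th percentile).

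H3K9ac tags at the regions assigned to the conjugation genes were lower in d22 where they were called, at 3 regions, and higher at none. The 3 were the Gstt2 region, the Ddt region assigned to Gstt3, and the region at the internal start of Sult2a8. The call is an adjusted p under 0.05 in edgeR's quasi-likelihood test, with Benjamini-Hochberg adjustment over all 12375 regions, of which 0.558% were called lower (69) and 0.453% higher (56) in d22. Over all regions that split depended on the scaling, with 428 lower and 26 higher by library totals, 2337 and 166 by the authors' fold enrichment, 13 and 26 in the libraries with 49-bp tags and 1 and 4 per kb of called peak; among members 0 were called higher in each. At an unadjusted p under 0.05 there were 11 of the 34 members (32.4%), against 10.9% of all regions. Of the 34, 23 (67.6%) had a negative log2 fold change, against 49.1% of all, and the median was -0.16 against 0.00. In 1 member, Gstt2, all 6 d22 values lay below all 6 pbs values, and in 0 members the reverse held. Of all regions, 0.743% had d22 wholly below pbs and 0.59% wholly above.

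**Figure D2:**
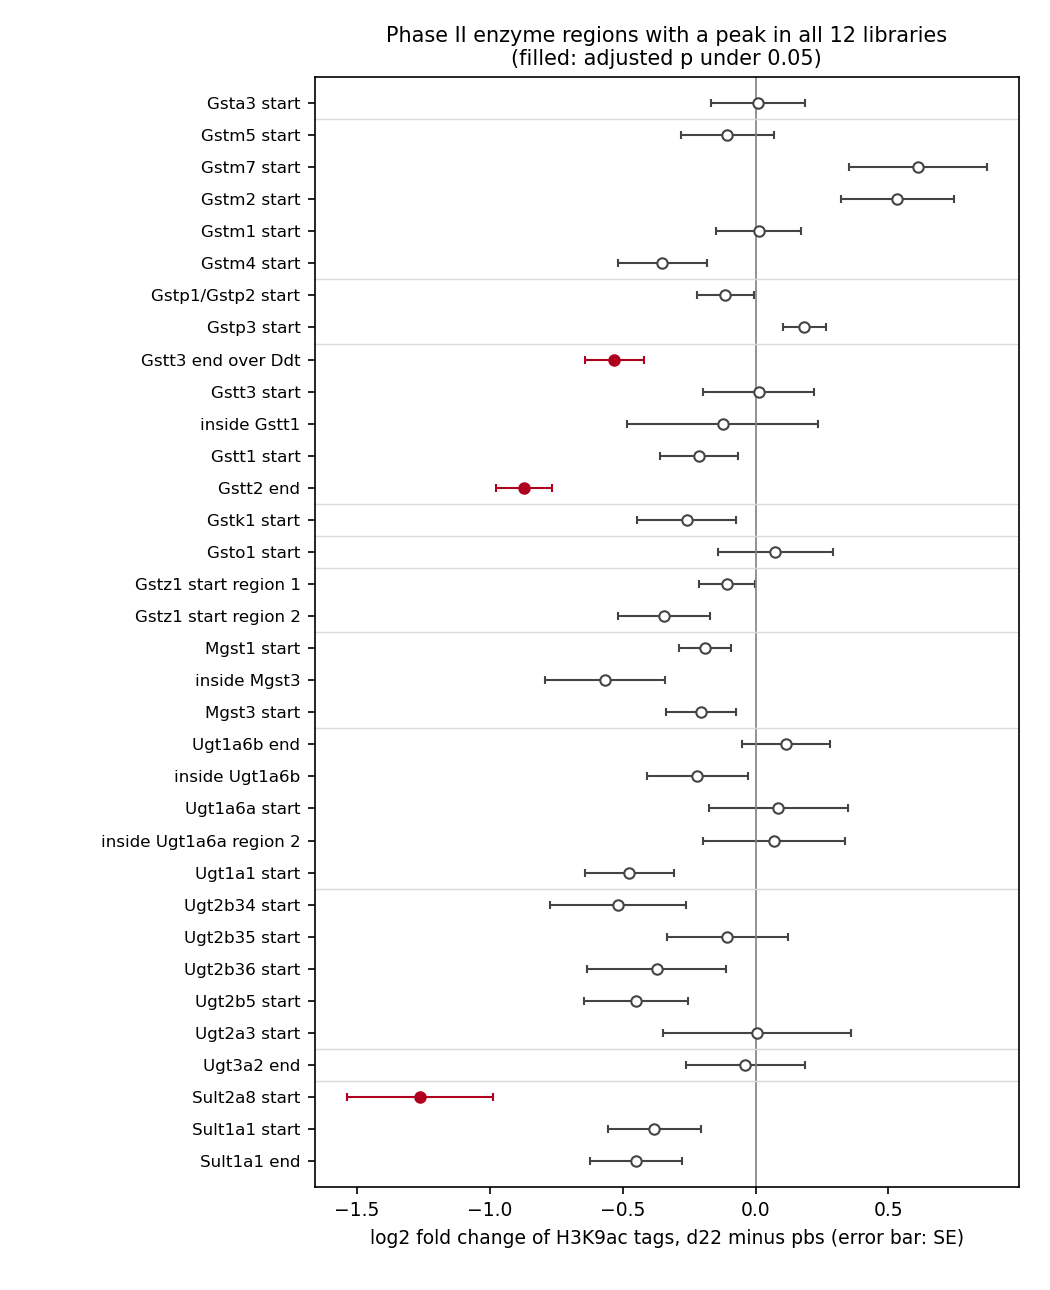
Log2 fold change of H3K9ac tags, d22 minus pbs, with its standard error (x axis) for the 34 regions found in all 12 libraries, grouped by family. Filled points are the 3 called regions (log2 fold change of -0.87 at Gstt2, -0.53 at the Ddt region beside Gstt3, -1.26 at Sult2a8). A region named for an end lies within 1 kb of a gene end for which no start was matched.

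The theta-class glutathione transferases, which act on small halogenated compounds, lie together on chromosome 10, and Gstt2 showed the firmest change of all members. Its region (chr10:75831982-75838317) overlaps 5438 bp of the 5578-bp gene. The d22 libraries had 82.5 (lowest), 114 (median) and 129 (highest) CPM, and the pbs libraries 179.9, 201 and 208. The groups did not overlap, and d22 4 and d22 2 were the lowest. The means were 107 ± 19.3 and 198 ± 10.6 CPM (SD, n = 6 each), a log2 fold change of -0.87 ± 0.10 (SE, adjusted p = 0.000443 by edgeR). The call held on leaving out each library in turn, with values from -0.93 to -0.80. It also held in the 9 libraries with 49-bp tags (-0.93, adjusted p = 0.0114 by edgeR), a subset chosen after seeing the data because the 3 libraries with 48-bp tags are all pbs.

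The region assigned to Gstt3 (chr10:75771068-75773700) met the rule through its distance of 417 bp from the lower end of Gstt3, which is the gene's 3′ end. It covers 2142 bp of Ddt, which encodes D-dopachrome tautomerase, a relative of the cytokine Mif, and it includes the start of Ddt printed above. The d22 libraries had 58.8 (lowest), 71.0 (median) and 99.4 (highest) CPM and the pbs libraries 95.4, 111 and 121. The groups overlapped only through d22 5, the highest of its group, and pbs 2, the lowest. The log2 fold change was -0.53 ± 0.11 (SE, n = 6 each, adjusted p = 0.0285 by edgeR). This call was lost on leaving out any 1 of 7 libraries (d22 1, 2 or 6; pbs 1, 3, 4 or 5), with log2 fold changes of -0.63 to -0.48 and adjusted p up to 0.0769 over all such fits, and in the 49-bp libraries (-0.52, adjusted p = 0.202, both by edgeR). Without d22 4 it was -0.48 (adjusted p = 0.0329 by edgeR). In the region at the start of Gstt3 itself the d22 libraries had 19.0 to 31.0 CPM and the pbs libraries 18.5 to 37.2, a log2 fold change of 0.01 ± 0.21 (SE, adjusted p = 0.991 by edgeR). That region held 20 to 105 tags per library. Peaks covered the start printed above in 3 libraries, and the median summit lay 520 bp downstream. Gstt1, the other theta enzyme with a shared region at its start, had -0.21 ± 0.15 there and -0.12 ± 0.36 inside the gene. Thus 2 of the 5 regions assigned to the cluster were called, 1 of them over Ddt, and the region at the start of Gstt3, between Ddt and Gstt2, was not. In bulk liver, a smaller share of cells carrying a mark and less mark per cell cannot be told apart.

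**Figure D3:**
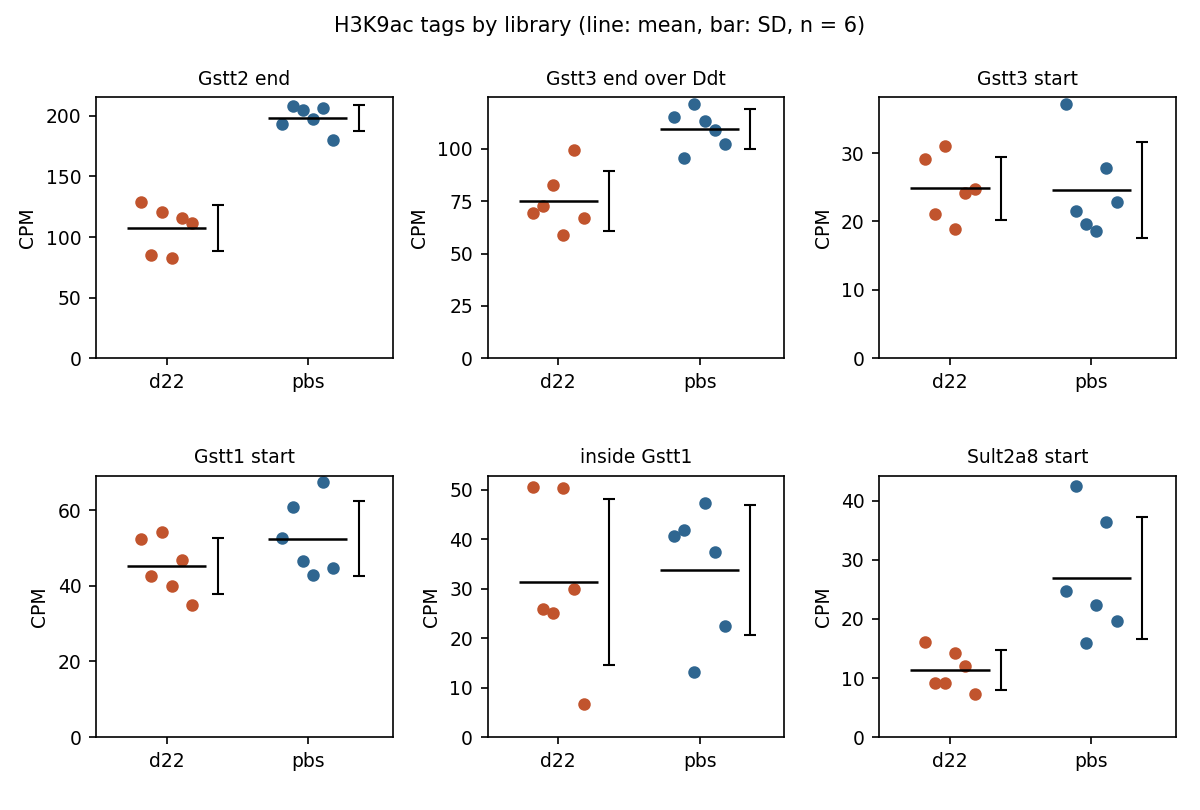
H3K9ac tags in CPM (y axis, from 0) in each library of the 2 groups for the 5 regions of the Gstt cluster and the called Sult2a8 region, with the mean (line) and SD (bar). At Gstt2 the d22 libraries lie between 82.5 and 129 CPM, below all pbs libraries, while at the start of Gstt3 the groups overlap.

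The mu class, the most abundant transferases of mouse liver along with the alpha and pi classes, had 5 shared regions and no call. Gstm1, the most heavily tagged, had 123 (lowest), 134 (median) and 190.5 (highest) CPM in d22 and 90.3, 155 and 183 in pbs, a log2 fold change of 0.01 ± 0.16 (SE). The 2 largest positive values of all members were both in this cluster. Gstm7 had 15.1 to 27.8 CPM in d22 and 9.45 to 22.3 in pbs (0.61 ± 0.26, adjusted p = 0.389), and Gstm2 had 27.5 to 41.9 and 16.0 to 37.4 (0.53 ± 0.21, adjusted p = 0.347, both by edgeR). Gstm4 had -0.35 ± 0.17 and Gstm5 -0.11 ± 0.17. The groups overlapped at each of the 5, so the values in this cluster ran in both directions without a call.

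In the pi class, the region of Gstp3, at 18299 bp the widest of the 115, held 364 (lowest), 404 (median) and 446 (highest) CPM in d22 and 313, 357 and 414 in pbs, a log2 fold change of 0.18 ± 0.08 (SE, adjusted p = 0.412 by edgeR). The sign of this value turned under 2 other scalings (-0.04 by library totals and -0.19 by the authors' fold enrichment). The region shared by Gstp1 and Gstp2, near-identical copies, held 181 to 290.4 CPM in d22 and 217 to 287 in pbs (-0.11 ± 0.11). Alpha-class Gsta3, the 1 shared region of its family, had 102 (lowest), 160.2 (median) and 229.9 (highest) CPM in d22 and 101, 175 and 200.1 in pbs (0.01 ± 0.18). Gsta1, Gsta2 and Gsta4 had no region found in all 12 libraries.

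Among the smaller classes, mitochondrial and peroxisomal Gstk1 had 18.9 to 23.6 CPM in d22 and 18.9 to 32.7 in pbs (-0.26 ± 0.19), and Gsto1 19.1 to 31.2 and 13.1 to 30.4 (0.07 ± 0.22). Gstz1, the maleylacetoacetate isomerase of tyrosine breakdown, had a region at its start, shared with Pomt2 (-0.11 ± 0.11), and another inside the gene. The latter had 37.9 (lowest), 110.1 (median) and 123 (highest) CPM in d22 and 114, 129 and 146 in pbs (-0.35 ± 0.17, adjusted p = 0.493 by edgeR). Its lowest value was that of d22 4, without which the log2 fold change was -0.20. The microsomal enzymes Mgst1 and Mgst3 had negative values at all 3 of their regions. Mgst1, an enzyme of the membrane that reduces lipid peroxides, had the highest mean over all 12 libraries of any member region tested: 302 (lowest), 381 (median) and 475 (highest) CPM in d22 and 387, 449 and 493 in pbs (-0.19 ± 0.10, adjusted p = 0.505 by edgeR). The region inside Mgst3 had 10.9 to 18.2 CPM in d22 and 15.2 to 29.8 in pbs (-0.57 ± 0.23, adjusted p = 0.349 by edgeR). Over all regions assigned to glutathione transferases, 13 of 20 had negative values, with a median of -0.12. Called lower were 2, Gstt2 and the Ddt region beside Gstt3, and called higher 0.

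No glucuronosyltransferase region was called, and 7 of 11 had negative values, with a median of -0.11. Ugt1a1, the enzyme that conjugates bilirubin, had 106 (lowest), 221 (median) and 262 (highest) CPM in d22 and 227, 298 and 383 in pbs. The groups overlapped, and the lowest value was that of d22 4. The log2 fold change was -0.47 ± 0.17 (SE, n = 6 each, adjusted p = 0.268 by edgeR), and -0.34 without d22 4 (adjusted p = 0.255 by edgeR). It passed with library totals in place of TMM (-0.69, adjusted p = 0.0236 by edgeR) and with the authors' fold enrichment in place of tags (-1.39, adjusted p = 2.46e-06 by limma). Those scalings put the median of all regions at -0.22 and -0.30. The fold enrichment at Ugt1a1 was 9.44 to 23.59 in d22 and 38.49 to 49.84 in pbs. Its background came from 1 pooled input per title group, so its p-value does not measure any spread of the input. Further up the cluster, the region at the lower end of Ugt1a6b, a phenol-conjugating enzyme, had 46.5 to 115 CPM in d22 and 68.9 to 101 in pbs (0.11 ± 0.16, adjusted p = 0.869 by edgeR). Ugt1a6a, its near copy, had 11.4 to 36.3 CPM in d22 and 14.1 to 28.8 in pbs at its start (0.09 ± 0.26).

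Within each library, the log2 difference between the Ugt1a1 and Ugt1a6b regions was smaller in every d22 library (0.99 to 1.42) than in any pbs library (1.68 to 1.94). The group means, 1.22 ± 0.149 for d22 and 1.802 ± 0.113 for pbs (SD, n = 6 each), differed by -0.58, with p = 0.00216 in a two-sided exact permutation test over libraries, the smallest that 6 against 6 can give, and 0.0108 after adjustment over 5 clusters. Since both regions come from the same library, no scaling of whole libraries can change this value. It was -0.62 to -0.54 on leaving out each library in turn, with adjusted p of at most 0.0216 by the same exact test.

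The contrast was run in the same way in each of the other clusters, between the 2 regions with the most tags. In the Gstt cluster, the Gstt2 region minus the Ddt region gave a difference of -0.34 between groups (exact permutation p = 0.0238, adjusted p = 0.0595). In the Gstp cluster, Gstp3 minus Gstp1 and Gstp2 gave 0.31 (p = 0.0584, adjusted p = 0.0974, exact permutation), and in the Gstm cluster Gstm1 minus Gstm4 gave 0.39 (p = 0.0779, adjusted p = 0.0974, exact permutation). In the Ugt2 cluster, Ugt2b34 minus Ugt2b5 gave -0.29 (exact permutation p = 0.693), and 0.08 without d22 4. The Ugt1 cluster was thus the 1 of 5 whose contrast passed.

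**Figure D4:**
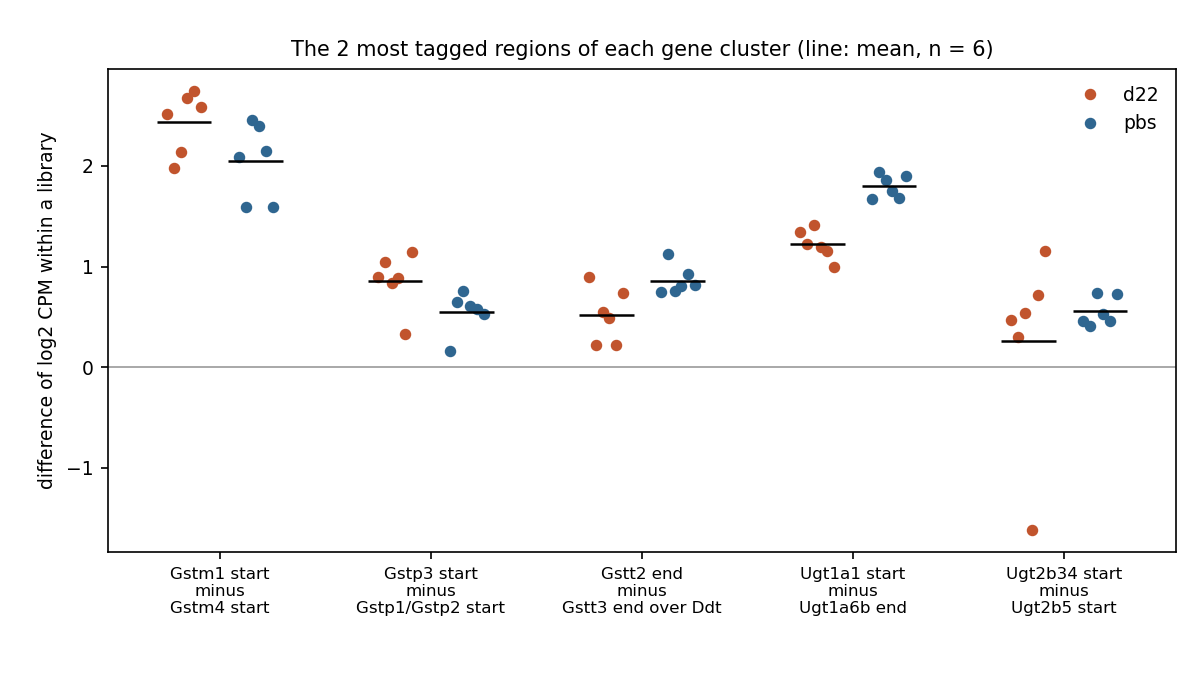
Difference in log2 CPM between the 2 most tagged regions of 5 gene clusters (y axis), 1 point per library, with the group mean (line). For Ugt1a1 minus Ugt1a6b, the d22 points lie at 0.99 to 1.42 and the pbs points at 1.68 to 1.94; for Ugt2b34 minus Ugt2b5, d22 4 lies at -1.62.

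The Ugt2 genes on chromosome 5 conjugate steroids and many drugs. Of their 5 shared regions, 4 had negative values, with a median of -0.37 and no call. Ugt2b34, the most heavily tagged, had 13.3 (lowest), 72.3 (median) and 80.2 (highest) CPM in d22 and 64.4, 102 and 126 in pbs (-0.52 ± 0.26, adjusted p = 0.486 by edgeR). The lowest value was that of d22 4, far below the other d22 libraries (63.1 to 80.2), and without it the log2 fold change was -0.34. Ugt2b5, with the smallest p of the family, had 35.6 to 57.8 CPM in d22 and 39.4 to 95.4 in pbs (-0.45 ± 0.20, adjusted p = 0.41 by edgeR). Ugt2b36 had -0.37 ± 0.26 and Ugt2b35 -0.11 ± 0.23. Ugt2a3 varied most within groups, from 15.2 to 94.3 CPM in d22 and from 34.2 to 110.3 in pbs (0.01 ± 0.35). On chromosome 15, Ugt3a2 had 26.6 to 49.4 CPM in d22 and 24.7 to 68.9 in pbs (-0.04 ± 0.23).

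All 3 shared sulfotransferase regions had negative values, and 1 was called. Sult2a8 belongs to the subfamily that sulfates steroids and bile acids. Its region (chr7:14436656-14438724), merged over the libraries, covers the internal start whose promoter is printed above and lies within the gene. That start lay inside a peak in 4 libraries (pbs 2, 4, 5 and 6), and the d22 peaks all lay downstream of it. The d22 libraries had 7.23 (lowest), 10.6 (median) and 16.0 (highest) CPM and the pbs libraries 16.0, 23.6 and 42.4. The groups met at 16.0 CPM, the value of d22 1 and of pbs 3, and otherwise did not overlap. The log2 fold change was -1.26 ± 0.28 (SE, n = 6 each, adjusted p = 0.0353 by edgeR), on 12 to 85 tags per library. The false discovery rate that the authors' caller gave these peaks was 6.07% (d22 4) to 62.93% (d22 3) in d22. In pbs it was 12.81% (pbs 5) to 24.35% (pbs 6). The call was lost on leaving out any 1 of 7 libraries (d22 2, 3, 5 or 6; pbs 2, 4 or 5), with log2 fold changes of -1.41 to -1.09 and adjusted p up to 0.0969 over all such fits, and in the 49-bp libraries (-1.50, adjusted p = 0.0721, both by edgeR). It was also lost when peaks within 500 bp were merged, which joins it to the next region in the gene (chr7:14438752-14439914, found in 11 libraries): the value was then -0.85 with an adjusted p of 0.24 by edgeR.

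Sult1a1, the main phenol sulfotransferase of liver, had 2 shared regions. The gene is on the minus strand, so the upper end of its span (chr7:126672865-126690443) is the 5′ end. No start was matched at that end, and the matched start (126676418) lies inside the span. The region at the matched start also covers the lower end of the span and overlaps Sgf29. It had 87.3 (lowest), 154 (median) and 227 (highest) CPM in d22 and 172, 192 and 249 in pbs (-0.38 ± 0.17, adjusted p = 0.436 by edgeR). The region at the upper end had 26.2, 38.5 and 51.3 CPM in d22 and 39.6, 54.1 and 61.4 in pbs (-0.45 ± 0.17, adjusted p = 0.314 by edgeR). The groups overlapped at both. Sult1b1, Sult1d1 and Sult1e1 on chromosome 5 had no region found in all 12 libraries.

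The tags of a region depend on how long a stretch was called as well as on how dense the tags were, so both were compared. The called length was shorter in d22 at 28 of 34 members, with a median log2 change of -0.19, against 70.9% of all regions and a median of -0.08. None of the 34 passed limma's test after adjustment, nor did any of the 12375 (0%). At an unadjusted p under 0.05 there were 6 members and 843 regions in all. Tags per kb of called peak were lower in d22 at 17 of 34 members, against 24.7% of all regions, with a median of -0.00088 against 0.08 for all regions. By limma 0 members and 0.0404% of all regions were called, and at an unadjusted p under 0.05 there were 2 members and 685 regions.

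The 3 called regions divided differently between length and density. At Sult2a8 the d22 libraries had 675 ± 219 bp called and the pbs libraries 1475 ± 414 bp (SD, n = 6 each), a log2 change of -1.13, while tags per kb differed by -0.10. At Gstt2 the length was 3996 ± 661 bp and 5497 ± 458 bp (-0.47), and tags per kb differed by a similar amount (-0.43, unadjusted p = 0.00147, adjusted p = 0.544 by limma). At the Ddt region beside Gstt3 the length was 1482 ± 173 bp and 1980 ± 422 bp (-0.40), with tags per kb at -0.16. Gstt2 and Gstm2 were the 2 members with an unadjusted p under 0.05 per kb, in opposite directions (Gstm2 at 0.36). At 29 of the 34 members, tags and length had the same sign.

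**Figure D5:**
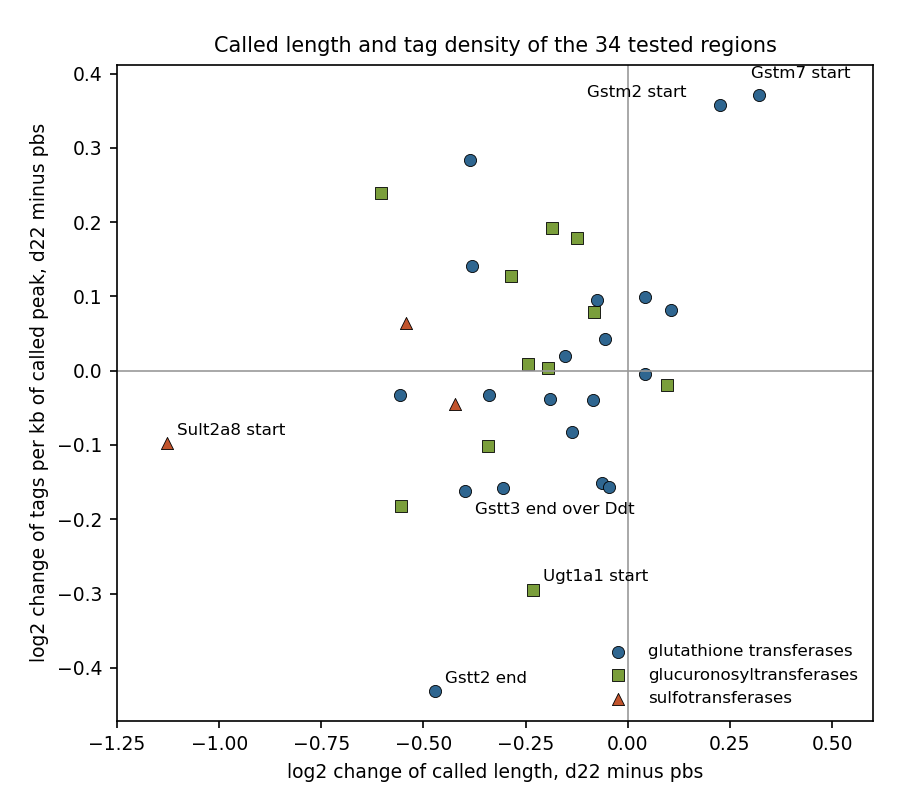
Log2 change of called length (x axis) against log2 change of tags per kb of called peak (y axis), both d22 minus pbs, for the 34 regions, with shapes for the 3 enzyme groups. Sult2a8 lies far left at -1.13 with a density change of -0.10, while Gstt2 lies lowest at -0.43 and also left at -0.47.

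Genes that supply cofactors to the enzymes, regulate them or export their products were read from lists, each gene by its most tagged region. Of the 13 cofactor genes with a region in all libraries, 1 was called lower and 0 higher, with a median of -0.02. That gene was Cth, which makes the cysteine for glutathione: 35.4 to 55.8 CPM in d22 and 61.5 to 102.5 in pbs, without overlap (-0.73 ± 0.15, adjusted p = 0.0244 by edgeR). This call was lost on leaving out d22 1, d22 6, pbs 3, pbs 4 or pbs 5 (-0.80 to -0.64 over all such fits, adjusted p up to 0.0705 by edgeR). Cbs, the enzyme before it in the same pathway, had 0.27 ± 0.12 (adjusted p = 0.434 by edgeR). The enzymes that make UDP-glucuronic acid had -0.17 (Ugp2) and -0.11 (Ugdh), and those that make the sulfate donor had 0.08 (Papss1) and -0.12 (Papss2). The genes Slc35d1 and Ggt1 had no peak in any library.

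Of the 6 transporters tested from the export list (Abcc2, Abcc3, Abcc6, Abcb4, Abcb11 and Slco1b2), 1 was called lower and 0 higher, with a median of -0.36. Slco1b2, an uptake carrier, had 0.18 ± 0.17. Abcc3, which carries glucuronides out to the blood, had 47.4 to 99.5 CPM in d22 and 91.7 to 175.9 in pbs (-0.84 ± 0.17, adjusted p = 0.0234 by edgeR). This call was lost on leaving out d22 2, d22 6, pbs 3 or pbs 5 (-0.96 to -0.74 over all such fits, adjusted p up to 0.0608 by edgeR). Its canalicular counterpart Abcc2 had -0.12 ± 0.12. Abcb4, the phospholipid floppase of the bile canaliculus, had -0.48 ± 0.14 (adjusted p = 0.147) and Abcc6 -0.51 ± 0.16 (adjusted p = 0.164, both by edgeR). Abcc4, Abcg2 and Abcb1a had no peak in any library. Of 9 genes of the Nrf2 pathway, the response to electrophiles, 0 were called and the median was -0.04, with the smallest p at G6pdx (-0.44 ± 0.19, adjusted p = 0.414) and Mafg (-0.13 ± 0.08, adjusted p = 0.604, both by edgeR). Nfe2l2 itself had -0.02 ± 0.09. Of 13 xenobiotic and lipid-sensing regulators, 0 were called and the median was -0.06. Ppara (-0.32 ± 0.11, adjusted p = 0.274) and Nr1i3, the receptor CAR (-0.24 ± 0.09, adjusted p = 0.307, both by edgeR), had the smallest p. Of 7 other conjugating enzymes, 0 were called and the median was -0.0042, with Hnmt at -0.48 ± 0.24 and Tpmt at -0.24 ± 0.12. At an unadjusted p under 0.05 there were 2 cofactor genes, 3 transporters, 1 Nrf2 gene, 2 regulators and 0 other conjugating enzymes.

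The tissue label was read against marker genes. All 6 hepatocyte markers had a region in all 12 libraries, with summed tags of 1253 to 1359 CPM in d22 and 1264 to 1525 in pbs. Of these, 3 had negative values, the median was -0.10, and the largest difference was that of Alb (-0.56 ± 0.18, adjusted p = 0.177 by edgeR). Of the 5 markers in each other list, 1 had such a region for cholangiocytes (Sox9, 67.0 to 140.4 CPM in d22 and 67.8 to 91.4 in pbs), macrophages (Cd68, 58.9 to 91.1 and 63.3 to 79.3), endothelium (Pecam1, 14.4 to 23.5 and 6.38 to 33.7) and lymphocytes (Cd79a, 110.1 to 268 and 107 to 141), and 0 for stellate cells. The Cd68 region was chr11:69660494-69663574 and the Cd79a region chr7:24902038-24906552. Whether a marker's region belongs to the marker or to a neighbouring gene was not tested. Krt19, Krt7, Epcam, Spp1, Cd3e, Ptprc, Nkg7, Marco and Des had no peak in any library. No marker was called in either direction, and any part of cell makeup in the results was not tested.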

How the data were processed

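Bases were called with CASAVA 1.8, reads aligned with Novoalign to mm10 and peaks called with MACS 1.4.2, per the submitters' processing notes. How reads with several matches were placed is not given in the sources used here. Per the file headers, each library was called alone, at a p-value cutoff of 1e-05, against 1 pooled input per title group (12526421 tags for d22, 10409931 for pbs), with 48-bp tags in 3 pbs libraries and 49-bp tags in 9 libraries. The pooled inputs were not analysed here. The deposited columns used were each peak's count of tags (raw), its length in bp, its score of -10 times log10 of the p-value, its fold enrichment ratio over local background, and its false discovery rate in percent, which was kept but not tested.

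Overlapping peaks of the 12 lists were merged into regions, and a library's tags in a region were summed over its peaks there. Genes, ends and starts came from RefSeq tables of GRCm38.p6, with starts for 59 of 67 member genes. Clusters joined genes of 1 family with gaps of at most 200 kb. Tags in the 12375 regions with a peak in every library were tested with edgeR 4.0.16 (quasi-likelihood, robust, TMM; R 4.3.3) with group as the only term, called length and tags per kb with limma 3.58.1 on the log2 scale, and occupancy with Fisher's exact test, each with Benjamini-Hochberg adjustment over all regions at 0.05. Cluster contrasts used exact permutation tests (SciPy 1.17.1). The tests were checked on simulated data. No pair of libraries was a duplicate (chi-square per degree of freedom of 2.41 to 10.3 over 66 pairs).

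Alternatives were DESeq2 1.42.0, other scalings and filters, peaks of a score of at least 100, merging within 500 bp, a replicate block and leaving out each library. The members, gene lists and tests were chosen with earlier results of these data known. Named were all called regions, each family's most tagged region and that with the smallest p, the cluster pairs, for occupancy the 3 smallest p in each direction, and of other lists the called genes and the 2 with the smallest p; further members are given to complete a family. The result for 1 marker gene is not reported here. Tag counts carry counting error, which the tests include.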

Additional observations from a re-analysis of the deposited data

Results flagged for a closer look

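Among 50 groups of 6 libraries checked (22 regions in both groups and 3 summary measures), 4 had a sample far from the others by the gap to its nearest neighbour relative to the group's range (Dixon's test at its usual critical value); chance flags about 1 in 20 groups. In all 4 the sample was d22 4, the shallowest library, as the lowest of the d22 group. It had 106 CPM at Ugt1a1 where the other d22 libraries had 207 to 262, 37.9 CPM in the second Gstz1 region where the others had 92.5 to 123, and 13.3 CPM at Ugt2b34 where the others had 63.1 to 80.2. The share of its peak tags in member peaks was 0.173%, against 0.243% to 0.279% in the others. It was the lowest of 12 libraries in 15 of 34 member regions, and in 23.7% of all regions tested. The library pbs 3, nearly as shallow (6385610 tags), was the lowest in 5 of the 34 and in 10.1% of all regions tested. Whether the depth of d22 4 had a part in its values was not tested. With d22 4 left out, 3 members were called lower, and 22 of 34 had negative values.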

How the results depend on the processing

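The count of 3 members called lower, with 0 higher, was 3 with DESeq2, 3 with the replicate block and 2 with a mean of at least 100 tags (16 members tested). It was 2 with peaks of a score of at least 100 and 2 with peaks within 500 bp merged. It was 10 with the authors' fold enrichment, 5 with library totals without TMM, 1 (Gstt2) in the libraries with 49-bp tags and 0 per kb of called peak. In regions with exactly 1 peak in every library it was 0, where 6 members could be tested and 0 of all 2599 regions were called. Gstt2 and the Ddt region had up to 3 and 2 peaks in a library and were not among the 6. Leaving out each library gave a count of 1 to 3. The count of called lengths was 0 to 2 on leaving out each library, with 2 without d22 1. Occupancy gave 0 throughout. On leaving out each library the Gstt contrast ran from -0.42 to -0.28 and passed the threshold without d22 1, as it did with a score of at least 100 (-0.41, adjusted p = 0.0216, exact permutation). The Gstp contrast ran from 0.23 to 0.42 and passed without d22 5 (adjusted p = 0.0108, exact permutation). The Ugt2 contrast ran from -0.47 to 0.083, positive without d22 4, and could not be computed at a score of at least 100. Same-numbered libraries correlated at -0.0067 to 0.157, over 0.1 in 1 of 6 pairs, so the numbers were not taken to pair them; with the replicate block the Ugt1 contrast of -0.58 had an adjusted p of 0.117 (exact permutation within pairs), where 6 pairs allow no p under 0.0312, or 0.156 after adjustment over 5 clusters for a contrast that alone reaches it.

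The 3 called members kept a negative sign under every alternative that could be run. For Sult2a8 these leave out peaks of a score of at least 100 and a mean of at least 100 tags. Among the 22 regions followed singly through the alternatives, signs turned at 7, none of them called. Over all 34, signs turned at 10 by fold enrichment, 10 per kb and 9 by library totals, none of them called. Gsta3 was at -0.0016 with DESeq2, -0.020 by fold enrichment, -0.21 by library totals, -0.25 with 49-bp tags and -0.033 at the higher score. Gstm1 was at -0.21, -0.22, -0.12 and -0.027 by fold enrichment, library totals, 49-bp tags and score. Ugt1a6b was at -0.34, -0.11 and -0.0050 by the first 3 of these, Gstp3 at -0.19 and -0.035 and Gsto1 at -0.50 and -0.14 by the first 2. Ugt3a2 was at 0.52 by fold enrichment, 0.019 with the block and 0.19 per kb, and the upper end of Sult1a1 at 0.064 per kb. Leaving out each library gave -0.11 to 0.11 for Gsta3, -0.10 to 0.087 for Gstm1, -0.037 to 0.16 for Gsto1 and -0.14 to 0.16 for Ugt3a2. Library totals and fold enrichment also moved the median of all regions to -0.22 and -0.30. The causes were not tested. The called Sult2a8 region rests on 12 to 85 tags per library. Its peaks in d22 2 to d22 6 had scores of 52.9 to 97.2, so it could not be tested at a score of at least 100.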
